A study of Glycine max with 6 samples.

Results

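The ferritin genes of soybean (Glycine max) were described here on 6 arrays of cotyledons, the storage organs of the seed. Members were all soybean probe sets whose single gene symbol in the platform annotation was H-1 or began with SFERH, which gave 10 of 37593 soybean probe sets for 4 genes: 4 for SFERH-2, 3 for SFERH-3, 2 for H-1 and 1 for SFERH-4. A probe set is a group of short oligonucleotides that reads 1 transcript or several similar ones. There were 3 samples of cotyledons weighing 150 mg. The control was nontransgenic and is called jack in the labels, and RNAi line 1 and RNAi line 2 were independent transgenic lines in which seed storage proteins were suppressed by RNA interference, the breakdown of transcripts that match a double-stranded RNA. For each sample there were 2 arrays, which the labels call technical replicates. The labels did not state the promoter or the target sequence of the transgene, the number of seeds per sample or the parent variety of the lines. The ferritin genes were chosen by their signal difference between the RNAi lines and the control, which was already known, so that difference is given as a description, with no test.

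Ferritin is a hollow protein shell that takes up iron and holds it as a mineral, which keeps free iron from reacting with oxygen. Plant ferritins are encoded in the nucleus and carried into plastids, and in legumes the seed keeps part of its iron in this form for the seedling. Soybean seed ferritin is known as a mixture of subunits, among them those encoded by H-1, also listed as SFerH-1, and by SFERH-2. The transcripts of plant ferritin genes are known to rise with iron supply.

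Signals were the authors' deposited intensities on a linear scale. A probe set was tested if it lay above background, the 95th percentile of the probe sets of other organisms on the array, on both arrays of at least 1 sample, which held for 27460 soybean probe sets and for 9 of the 10 members. Background ran from 68.4 to 91.7 by array, and 26459 to 27396 soybean probe sets lay above it per array. Differences are on the scale of log2(signal + 16), on which dim probe sets seem to change less than they do. All are taken with the arrays scaled as deposited, where the median tested probe set had a difference of 0.02. The 24 probe sets of the poly-A control RNAs, bacterial transcripts added to a sample before labelling, had a geometric mean of 5636 in the control, 1884 in line 1 and 1885 in line 2, a 2.99-fold difference. Scaled to these spikes, the median tested probe set had a difference of 1.52, so the directions below are against the bulk of the transcripts, and some of them differ per added spike. With bulk tissue, fewer cells of a type and less RNA per cell cannot be told apart.

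At the brightest probe set of each gene, SFERH-2 gave the highest ferritin signal in the control and H-1 the next, and both genes had lower signals in both RNAi lines. SFERH-3 and SFERH-4, dimmer than these on every array, had higher signals in both lines. Of the 9 tested members, 6 (all those of SFERH-2 and H-1) lay below both control arrays on all 4 RNAi arrays, where 23.6% of all tested probe sets did so. The other 3 (SFERH-3 and SFERH-4) lay above both control arrays on all 4, where 25.9% of all tested probe sets did so. These shares are those of the contrast by which the genes had been picked, and nothing is read from them. Probe sets differ in how brightly they bind, so signals of different probe sets do not rank the transcripts of different genes.

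SFERH-2 had signals of 18854 and 19134 on the control arrays at its brightest probe set. On the RNAi arrays it stood at 7820 and 7507 in line 1 and at 7151 and 7168 in line 2. The groups did not overlap, and arrays of the same sample were at most 0.06 apart on the log2 scale. The log2 difference from the control was -1.31 in line 1 and -1.41 in line 2, with a mean of -1.36, so that the control was 2.56-fold above the lines.

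The other probe sets of SFERH-2 gave larger differences. At the next in brightness the signals were 10939 and 12032 in the control, 3382 and 3870 in line 1 and 3557 and 3791 in line 2, with a mean log2 difference of -1.65. At the third they were 4642 and 5146 in the control, 897 and 807 in line 1 and 933 and 838 in line 2, a mean difference of -2.47. The dimmest had 1310 and 1198 in the control, 213 and 182 in line 1 and 245 and 212 in line 2, a mean difference of -2.48. Every RNAi array was thus below every control array at each of these probe sets, but what remained in the lines ran from 17.0% of the control signal at the dimmest to 39.0% at the brightest. By the naming used on this kind of array, the third is of the type in which some probes can bind unrelated transcripts.

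H-1 had signals of 7240 and 6940 on the control arrays at its brighter probe set. It had 2704 and 3046 in line 1 and 3270 and 3263 in line 2. The groups did not overlap, with log2 differences of -1.30 in line 1 and -1.11 in line 2 and 43.3% of the control signal left in the lines. At its other probe set, which its name marks as sharing probes with similar genes, the control had 6507 and 6899, line 1 had 2156 and 2237 and line 2 had 2125 and 2079. Its mean log2 difference was -1.63, larger than the -1.21 at the brighter probe set.

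A further pair of probe sets stood beside H-1 in the annotation but were no members. One that carried the symbols of both H-1 and LOC547698, and so names neither gene, had 8618 and 8520 in the control, 2481 and 2521 in line 1 and 2546 and 2427 in line 2. The one annotated to LOC547698 alone had 1893 and 1855 in the control, 502 and 553 in line 1 and 474 and 523 in line 2. All RNAi arrays were below both control arrays at each, with mean log2 differences of -1.77 and -1.84.

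SFERH-3 had signals of 1436 and 1466 on the control arrays at its brightest probe set, of the type shared with similar genes. In line 1 it had 1891 and 2097, and in line 2 it had 1853 and 1962. All RNAi arrays were above both control arrays, with log2 differences of 0.45 in line 1 and 0.39 in line 2. Its next probe set went the same way, with 734 and 912 in the control, 1154 and 1212 in line 1 and 1128 and 1054 in line 2, and a mean difference of 0.47. The control arrays were 0.31 apart there on the log2 scale, the widest gap between arrays of a sample at any tested member. The remaining SFERH-3 probe set was below background on all 6 arrays, with signals from 9.11 to 55.2, and was not tested.

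SFERH-4, read by 1 probe set, was the dimmest of the 4 genes at their brightest probe sets. It had 281 and 350 in the control, 464 and 455 in line 1 and 514 and 495 in line 2. All 6 arrays lay above background, and the RNAi arrays lay above both control arrays. Its log2 difference was 0.53 in line 1 and 0.66 in line 2. The mean of 0.59 was 0.44 without control replicate 1 and 0.75 without control replicate 2, so it rests partly on the gap between the control arrays.

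**Figure D1:**
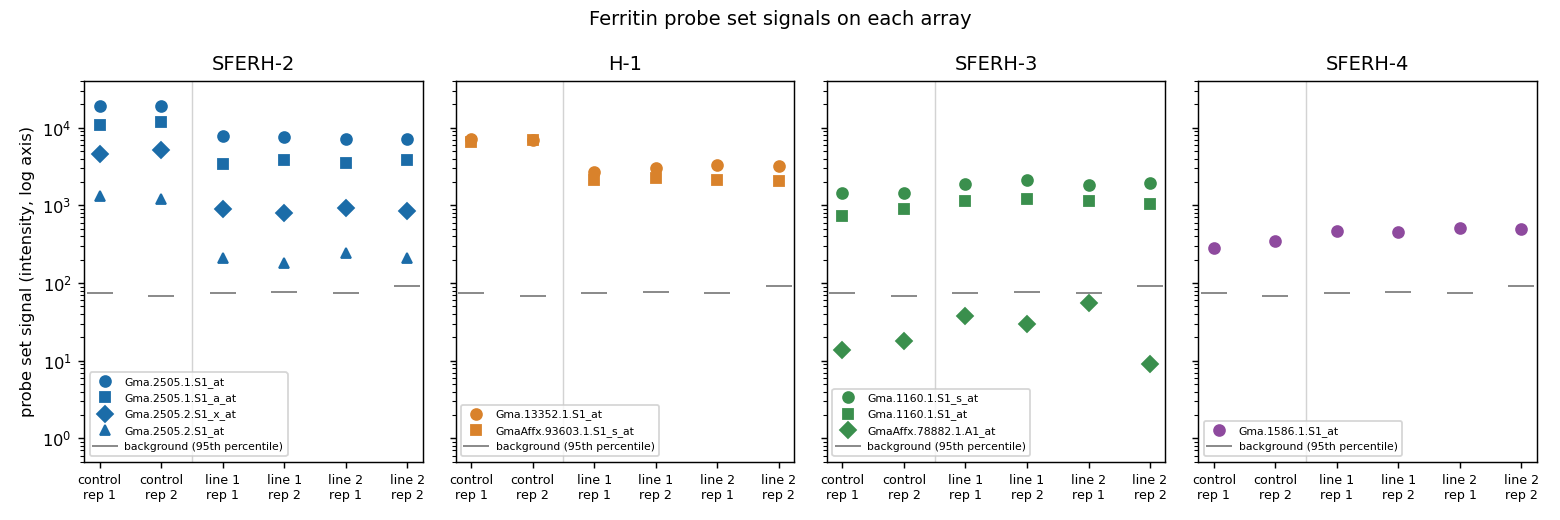
Signal of each ferritin probe set (log axis, intensity) on each of the 6 arrays, with 1 panel per gene and 1 marker shape per probe set. Grey dashes mark the background of each array. All probe sets of SFERH-2 and H-1 are lower in the RNAi lines than in the control, those of SFERH-3 above background and that of SFERH-4 are higher, and the remaining SFERH-3 probe set stays below background.

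Set among all tested probe sets, SFERH-2 and H-1 lay far out on the lower side, and SFERH-3 and SFERH-4 only moderately on the upper side. The genes had been picked by this contrast, so nothing is read from these ranks. For SFERH-2, between 24 and 207 of the 27460 tested probe sets had differences as low or lower, depending on its probe set, and for H-1 the range was 119 to 290. For SFERH-4, 2546 tested probe sets had differences as high or higher, and for SFERH-3 the range was 3828 to 4416. The median over the 9 tested members was -1.36, beside 0.02 over all tested probe sets. It is the value of the brightest SFERH-2 probe set, as 6 of the 9 read SFERH-2 or H-1. By gene the family divided, with 2 genes lower and 2 higher on all RNAi arrays at their brightest probe sets.

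**Figure D2:**
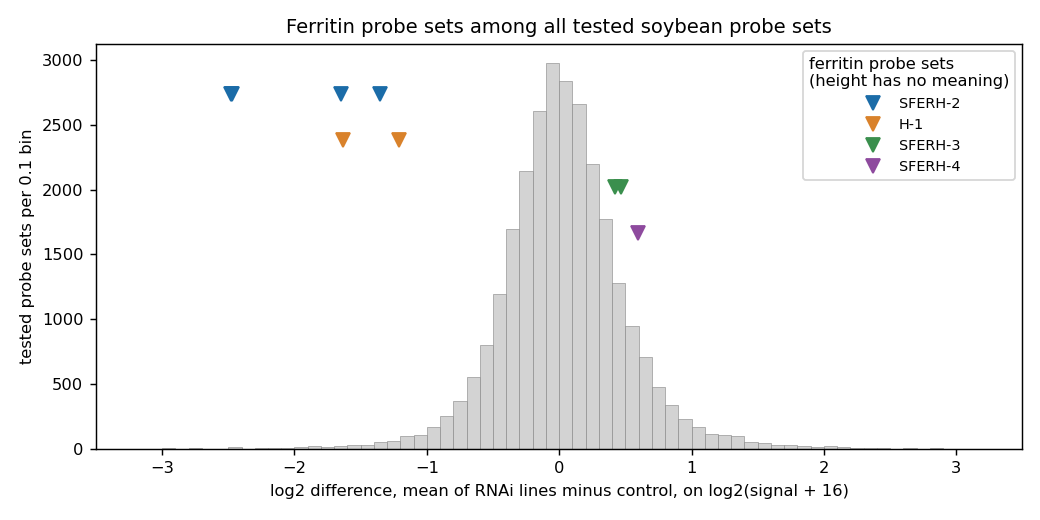
Histogram of the log2 difference between the mean of the RNAi lines and the control for the 27460 tested soybean probe sets, in bins of 0.1, with triangles at the 9 tested ferritin probe sets (their height has no meaning). SFERH-2 and H-1 lie between -2.48 and -1.21, and SFERH-3 and SFERH-4 between 0.42 and 0.59, inside the upper shoulder of the histogram.

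The summed signal of the family, taken over the brightest probe set of each gene, was 27811 and 27890 on the control arrays. It was 12878 and 13106 in line 1 and 12788 and 12887 in line 2, a mean of 12915 ± 109 (SD, n = 2 lines). The lines thus kept 46.4% of the control sum (log2 difference -1.11, and -1.10 and -1.12 in the single lines). With the probe sets of each gene averaged before summing, 41.8% was left, and with all 10 probe sets added, 39.5%. The sum weighs genes by how brightly their probe sets bind, so it is not a count of ferritin transcripts.

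SFERH-2 made up 68.2% of that sum in the control, H-1 25.5%, SFERH-3 5.21% and SFERH-4 1.13%. In the lines the SFERH-2 share was 59.0% in line 1 and 55.8% in line 2, and H-1 held 22.1% and 25.4%. SFERH-3 came to 15.3% and 14.9% and SFERH-4 to 3.54% and 3.93%. SFERH-2 thus remained the brightest part on all 6 arrays, while the share of the dimmer pair was larger in both lines. Of the net loss, 77.5% came from SFERH-2 and 26.9% from H-1, and the higher signals of SFERH-3 and SFERH-4 entered it with -3.34% and -1.12%. When probe sets were averaged per gene, SFERH-2 and H-1 were closer, with 53.4% and 40.3% of the control sum and 61.4% and 43.0% of the net loss, so the lead of SFERH-2 depends in size on which probe sets stand for it.

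**Figure D3:**
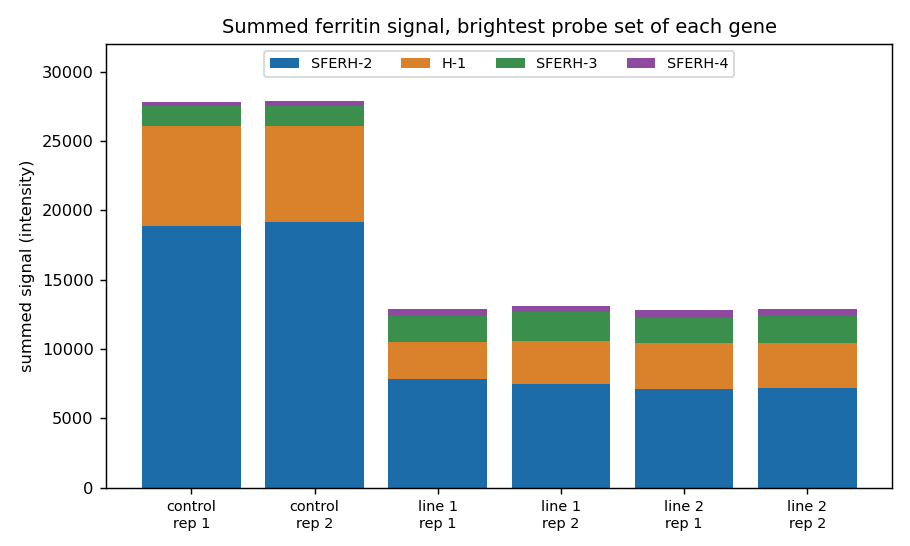
Summed ferritin signal (intensity, axis from 0) on each array, stacked by gene from the brightest probe set of each. The control bars reach 27811 and 27890 and the RNAi bars 12788 to 13106, with SFERH-2 the largest segment on every array.

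Ratios between ferritin genes on the same array depend little on how arrays are scaled. The log2 ratio of SFERH-3 to SFERH-2, at their brightest probe sets, was -3.70 and -3.69 on the control arrays, -2.04 and -1.83 in line 1 and -1.94 and -1.86 in line 2. It was thus higher on every RNAi array, by 1.78 on average. The ratio of SFERH-4 to SFERH-2 was higher in the lines by 1.95, that of SFERH-3 to H-1 by 1.63 and that of SFERH-4 to H-1 by 1.80. Under the other scalings tried these 4 mean shifts ran from 1.61 to 1.95. Within each pair the ratios moved less at the brightest probe sets: H-1 over SFERH-2 shifted by 0.01 in line 1 and 0.29 in line 2, and SFERH-4 over SFERH-3 by 0.08 and 0.27. Over all 8 pairings of their probe sets, the shift of H-1 over SFERH-2 ran from -0.28 to 1.27, and over the 18 tested pairings of the dimmer with the brighter genes it ran from 1.63 to 3.07. These ratios describe unequal change between the pairs, and not which gene of a ratio moved. The pairs follow the direction in the contrast by which the genes had been picked, so nothing is read from these shifts.

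The direction depended on the scaling. The sources used here do not say whether equal amounts of the spikes were added to each sample, so values scaled to them are not read as absolute amounts. After quantile normalization and after median centring, all 9 tested members kept their sign. Scaled to the poly-A spikes, the brightest probe set of SFERH-2 had a difference of 0.22 and that of H-1 0.37, both turned upward, while the other probe sets of SFERH-2 ran from -0.95 to -0.07 and the other of H-1 stood at -0.06. On that scale SFERH-3 had 1.98 and 2.01 and SFERH-4 2.09. Relative to the median of all tested probe sets on the same scale, SFERH-2 stood at -1.30 and H-1 at -1.15 at their brightest probe sets, and SFERH-3 at 0.46 and SFERH-4 at 0.57. The part of the spike RNAs in these differences was not tested.

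**Figure D4:**
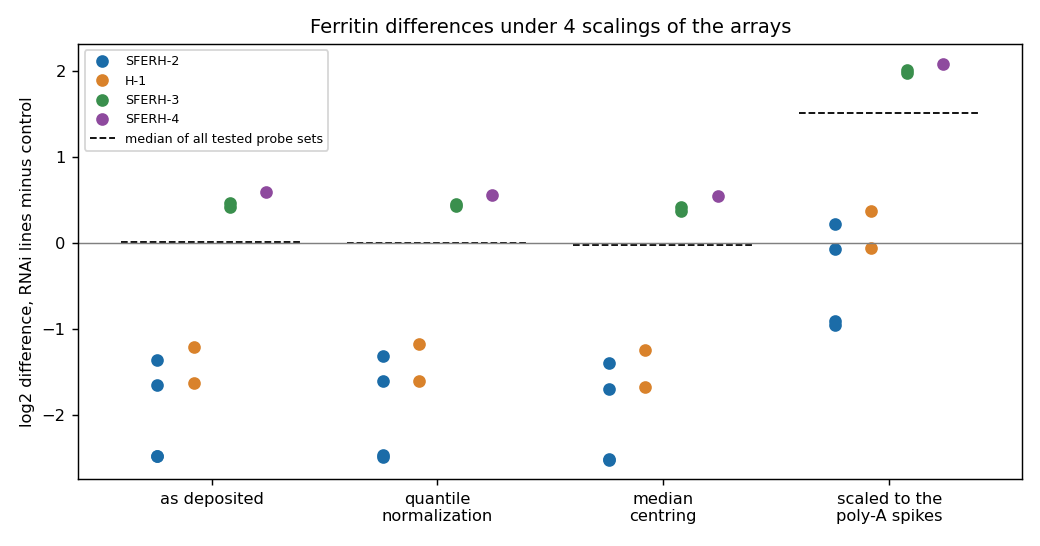
Log2 difference of the RNAi lines from the control for the 9 tested ferritin probe sets under the deposited scaling and 3 others, with the median of all tested probe sets as a dashed line. Scaling to the spikes lifts that median to 1.52 and carries the ferritin probe sets up with it, with SFERH-2 and H-1 still below the dashed line and SFERH-3 and SFERH-4 above it.

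The difference between the RNAi lines is not independent of the choice of the genes, which was made with both lines known. Small values are thus not read as agreement of the lines. The difference was tested with limma, a linear model with a moderated spread, fitted to all 27460 probe sets on the 6 arrays. Each line is 1 sample, so these p-values measure the spread between technical replicates. Of the 9 tested ferritin probe sets 0 were called at an adjusted p below 0.05, beside 0 of all tested (0%), and at an unadjusted p below 0.05 there were 0 ferritin probe sets and 1598 of all (5.82%). Line 2 was lower at 4 of the 9 and higher at 5. The brightest SFERH-2 probe set was lower in line 2 by a log2 difference of -0.10 (95% interval -0.32 to 0.13, adjusted p = 0.971 by limma). H-1 was higher in line 2 by 0.19 at its brighter probe set (interval -0.08 to 0.45, adjusted p = 0.938 by limma) and lower at the other, at -0.06. SFERH-3 had -0.06 (interval -0.32 to 0.20) and SFERH-4 0.13 (interval -0.20 to 0.46). The largest difference between lines at a tested ferritin probe set was 0.20, at the dimmest of SFERH-2. The median size over the members was 0.10, and over all tested probe sets it was 0.11. Gaps between arrays of 1 sample had a median of 0.09 over the members and 0.15 over all tested probe sets.

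Genes with a profile most like that of the brightest SFERH-2 probe set were sought among 1180 tested probe sets of 769 named genes, by the root mean square distance of the log2 values, each taken against the control mean, over the 6 arrays of 3 samples. The nearest was SBPRP, a proline-rich cell wall protein, at a distance of 0.07, with signals of 5032 in the control and 1902 and 1825 in the lines. Next came ERF6, of a family of ethylene-responsive transcription factors, with 1081 in the control and 428 and 417 in the lines. AAH, an enzyme of ureide breakdown, had 1268 in the control and 503 and 443 in the lines, with log2 differences of -1.24, -1.37 and -0.43 at its other probe sets. FAD2-3, an oleate desaturase, had 10691 in the control and 4355 and 4369 in the lines. GY2, a glycinin storage protein gene, had 50805 in the control and 18605 and 19241 in the lines at its probe set in this ranking, but -2.73 at its other one. The distance of H-1 was 0.18 and that of SFERH-3 1.45, each at its brightest probe set, while the other probe sets of SFERH-2 itself lay at 0.26, 0.92 and 0.93, farther off than H-1. With 3 samples such likeness amounts to a shared difference between the control and the lines.

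Other genes of iron handling, and of the removal of peroxide and superoxide, which not all need iron, had been listed by symbol, and 37 of their probe sets (21 of them in the removal list) were tested by limma for the RNAi lines against the control, on the 3 sample means. Of all tested probe sets 1.64% were called there at an adjusted p below 0.05, and of the 37 listed 0 were called. Without adjustment 16 of the 37 had p below 0.05, beside 33.1% of all tested. Of the 37, 25 had a higher mean in the lines and 12 a lower one, with a median of 0.25 beside 0.02 over all tested probe sets. The lowest adjusted p was 0.0507. The count of calls was 17 with an intensity trend, where 8517 of all 27460 tested probe sets were called. It was 18 with the sample as a random block, where 10196 of all tested were called.

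In iron and metal transport, 4 of 5 probe sets were higher, with a median of 0.17. DMT1, a divalent metal transporter also listed as GmNRAMP2b, had 340 and 322 in the control, 588 and 504 in line 1 and 553 and 440 in line 2. All RNAi arrays were above both control arrays, with a log2 difference of 0.62 (SE 0.12, adjusted p = 0.0770). SAT1 was listed by its symbol alone, and no role in iron handling is shown for it here. It had 0.51 and 0.17 at its probe sets, with 1 control array below background at the first. The value at the second is also the list median. FRD3a was below background on all 6 arrays.

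In heme and globins, 3 of 5 were higher, with a median of 0.04 that turned to -0.01 after median centring. GSA1, an enzyme on the path to heme and chlorophyll, had 1053 and 982 in the control, 2084 and 2062 in line 1 and 2038 and 2121 in line 2 at 1 probe set, a log2 difference of 1.02 (SE 0.10, adjusted p = 0.0514). Others of its probe sets gave 0.85 and 0.04, the last with groups that overlapped. The heme oxygenase gene HO1 had -0.19 and -0.07, and GLB3 and HO3 were below background on all arrays.

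In iron-sulfur proteins and ferredoxins, 4 of 6 were higher, with a median of 0.52. The nitrite reductase gene NIR had 0.85 and 0.80, with 1 control array below background at the first, which stood at 32.6. The sulfite reductase gene SIR had 0.60 at 1 probe set, with 2452 and 2457 in the control and 3515 to 3822 in the lines, and -0.28 and -0.17 at its others, whose groups did not overlap either.

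In peroxide and superoxide removal, 14 of 21 were higher, with a median of 0.25. APX1, a cytosolic ascorbate peroxidase with a heme iron, had 2992 and 2896 in the control, 6608 and 6517 in line 1 and 6489 and 6105 in line 2 at 1 probe set, a log2 difference of 1.12 (SE 0.10, adjusted p = 0.0507), but 0.39, -0.03 and -0.47 at others. SODB2, an iron superoxide dismutase also listed as FeSOD-2, had 10197 and 11485 in the control and 16672 to 19460 on the RNAi arrays, with 0.69 (adjusted p = 0.0674). The catalase gene CAT4 had 0.66 and 0.31. Scaled to the spikes, all 37 listed probe sets were called higher, with the offset of that scaling.

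**Figure D5:**
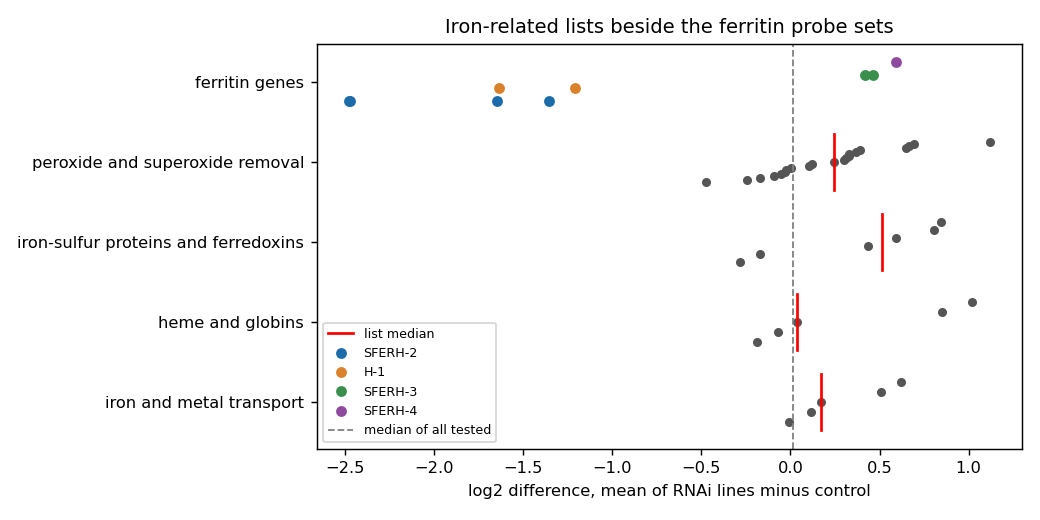
Log2 difference of the RNAi lines from the control for the tested probe sets of the 4 lists of iron handling and peroxide or superoxide removal (grey points, with the list median in red) and for the 9 tested ferritin probe sets (coloured by gene). The listed probe sets lie between -0.47 and 1.12, so none is as low as the SFERH-2 and H-1 probe sets, which lie at -1.21 and below.

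Of the 5 protein-coding genes on either side of each ferritin gene in the RefSeq annotation of assembly Glycine_max_v4.0, 40 in all, 4 had a tested probe set. The neighbours directly beside SFERH-2 went opposite ways: LOC100801792 had 13048 in the control and 21020 in the lines, and LOC100500143 had 478 and 285. Of these 4 neighbours 0 were called by limma, where 1.64% of all tested probe sets were called, so nothing is read from that count. Their differences ran from -0.72 to 0.68.

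Marker genes also differed between the RNAi lines and the control, some lower and some higher in the lines. The 9 cotyledon symbols with a probe set, storage proteins among them, had a summed signal of 634316 to 644464 on the control arrays and 303874 to 385406 on the RNAi arrays, and 5 of 14 tested probe sets were called lower, beside 1.64% of all tested called in either direction. The lines were made to suppress storage proteins, so for those markers an effect of the transgene and fewer storage cells cannot be told apart. The part of the transgene in the marker differences was not tested. Seed coat markers summed to 22397 and 23586 in the control and to between 11477 and 12872 in the lines, with SCB1 called higher and PRP2 and SBPRP lower at 1 probe set each. VSPA, the leaf marker with probe sets here, summed to 768 and 833 in the control and to between 1826 and 2312 in the lines, with 2 of 4 tested probe sets called higher. These marker calls come from a fit that made 0 calls after quantile normalization, median centring or robust moderation. The seed coat marker PRP1 was below background on all 6 arrays, as were some of the VSPA probe sets. The 6 root nodule symbols had no probe set with that symbol alone. The part of other cell types in the ferritin differences was not tested. Since the control is a single sample, its genotype and how it was handled cannot be told apart.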

How the data were processed

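Total RNA was hybridised to a short-oligonucleotide array, 2 technical replicate arrays for each of 3 samples. The authors' deposited values were 1 intensity per probe set, linear and already scaled per array: leaving out the lowest and the highest 2%, each array had a mean of 500.1, as found from the values. The software is not given in the sources used here, and neither is a genome build. The number of samples, 3 with 1 control among them, limits the precision of the comparison with the control, and technical replicate arrays do not add to it. Symbols came from the platform annotation, updated through the RefSeq table of Glycine_max_v4.0 for 8652 of 9047 listed soybean probe sets. Of the soybean probe sets 8677 had 1 symbol, 370 several and 28546 none.

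Fits used limma 3.58.1 in R 4.3.3 (lmFit, eBayes, Benjamini-Hochberg over 27460 probe sets), on log2(signal + 16). To compare the RNAi lines with the control, replicate arrays were first averaged within samples, which left 1 residual degree of freedom. The fits were run on simulated data that held technical spread only, as a check of the sign and size of differences. Such data cannot show how many calls would be false with spread between samples. Labels did not say whether samples came from separate plants beyond the independent lines. Intervals use the moderated spread. The members, lists and alternatives were chosen with earlier results of these data known. Named are every ferritin probe set, the 3 largest differences in each iron-related list and the 5 genes nearest to the brightest ferritin probe set. The list patterns also matched GRP, which was left out before its values were seen because the symbol stands for another kind of protein. Alternatives were other scalings, filters, pseudocounts, moderation, blocks and each array left out.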

Additional observations from a re-analysis of the deposited data

How the results depend on the processing

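The summed ferritin signal had a log2 difference of -1.11, and of -1.07 after quantile normalization, -1.15 after median centring, -1.26 with the probe sets of each gene averaged, -1.34 with all probe sets added and 0.47, turned upward, after scaling to the poly-A spikes. At their brightest probe sets, H-1 turned to 0.37 and SFERH-2 to 0.22 with that scaling, and tested ferritin probe sets below both control arrays on all RNAi arrays went from 6 to 2 and those above from 3 to 5; the other alternatives left those counts at 6 and 3. The spike RNAs differed 2.99-fold between the control and the lines in the deposited values; the cause was not tested. Pseudocounts of 1 and 64 turned no ferritin gene.

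For the RNAi lines against the control, limma called 451 probe sets, 0 with robust moderation, with a pseudocount of 1, unfiltered, or after median centring or quantile normalization, 3323 with the 99th percentile filter, 3547 with a pseudocount of 64, 8517 with an intensity trend, 10196 with the sample as a random block and 26511 scaled to the spikes. Leaving out each array gave 0 to 1884, with 0 without any 1 of the RNAi arrays, 1231 without control replicate 1 and 1884 without control replicate 2. With the technical replicate number as a block, on 6 arrays, it was 5940. That fit took arrays of the same sample as separate replicates, so its counts, here and for the lists below, rest partly on technical spread. Arrays of the same number did not deviate together (correlations of -0.01 to 0.02). No shared effect of the replicate number was thus seen, but this cannot show whether such arrays were handled together. Of the 37 tested probe sets in iron-related lists 0 were called, 9 with the 99th percentile filter, 10 with a pseudocount of 64, 17 with an intensity trend, 18 with the random block, 12 with the replicate block, 37 scaled to the spikes, and 0 to 6 leaving out each array (3 without control replicate 1 and 6 without control replicate 2). Between the lines 0 were called under every alternative run, the replicate block included. The cause of these changes was not tested.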
